A study of Mus musculus with 8 samples.

Results

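The resting bulge of the wild-type (WT) mouse hair follicle was profiled here as the transcriptome of 2 of the 8 libraries of the series, WT 34 and WT 82, with no contrast against the other groups. They were chosen by their genotype label, and every gene in the shared expression table was read in them, which came to 46517 genes. The series set stem cells without the transcription factors NFIB and NFIX against WT cells. Its groups were NFIB-cKO, NFIX-cKO, NFIB/X-dKO and WT, with 2 libraries each, and the 6 knockout libraries were not used here. Both WT mice were male, were 70 days old, at the second resting phase (telogen) of the hair cycle, and carried the alleles NFIBfl/fl;NFIXfl/fl;R26-YFPfl/fl. No Cre is listed for them and the series names them as littermates, so their NFI genes were floxed but not deleted as far as the labels say. Live cells of back skin were sorted by flow cytometry as negative for DAPI and Sca-1 and positive for integrin alpha 6 and CD34, with no gate on YFP. The sorted cells went straight into TRIzol LS, and the Illumina TruSeq mRNA preparation was used for sequencing of paired ends. The titles give the libraries different animal numbers, and nothing else says that they are separate cultures or pools, so the spread given here is that between these 2 samples.

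The bulge is the part of the outer root sheath, below the sebaceous gland, where hair follicle stem cells rest between rounds of hair growth. Its cells are basal epithelial cells: they make basal keratins, sit on a basement membrane through hemidesmosomes, and are held in quiescence in large part by BMP and FGF18 signals, while WNT signals accompany their activation. Transcription factors such as SOX9, LHX2, TCF3 (the product of Tcf7l1) and NFATC1 are known to keep them in this state.

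Values are in TPM, a unit of transcript abundance that is scaled per transcript length and to the same sum in each library, so levels can be compared between genes. TPM keeps no depth, so the depth of both libraries is unknown, and the only error available is the spread between them, given as the standard deviation (SD). A gene was counted as detected at a TPM of at least 1 in both libraries, which 13538 of 46517 genes reached (29.1%), as did 11656 of 21534 nuclear protein-coding genes (54.1%). The median nuclear protein-coding gene had a mean of 2.66 TPM, and 4529 of them (21%) were listed at 0 in both libraries. Across the 14370 genes with a mean of at least 1 TPM, log2(TPM + 1) correlated between the libraries with a Pearson r of 0.954 and a Spearman rho of 0.955. These are descriptions across genes, which are not independent replicates. Of these genes, 948 (6.6%) differed by more than 2-fold between the libraries on the log2(TPM + 1) scale, 461 of them higher in WT 82 (3.21%) and 487 higher in WT 34 (3.39%). The median difference, WT 82 minus WT 34, was -0.23 on the log2 scale. After scaling by the median ratio over genes, 723 genes were more than 2-fold higher in WT 82 and 306 in WT 34, so the share of calls higher in WT 82 was 48.6% unscaled and 70.3% scaled. Differences between libraries are given unscaled below. Of the genes named as more than 2-fold higher in WT 34, Fzd7, Ackr4, Ccnd1 and Nr3c1 fell inside 2-fold after scaling. Other genes passed 2-fold higher in WT 82 only after scaling. Among the 35 further follicle stem cell genes below, scaling raised the number higher in WT 82 from 2 to 4. It lowered the number higher in WT 34 from 1 to 0.

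The genes taken as markers of the bulge were high. Cd34 and Itga6 encode proteins on which the cells were selected, so their levels are not separate support. Krt15, a keratin of bulge stem cells, stood at 13164 TPM in WT 34 and 11904 TPM in WT 82. Cd34, the surface sialomucin used in the sort, reached 1144 TPM in WT 34 and 929 TPM in WT 82, which put it at rank 128 of the 21534 nuclear protein-coding genes. Lhx2, a LIM homeodomain factor of follicle stem cells, had 291 TPM in WT 34 and 314 TPM in WT 82. Sox9, which specifies these cells, had 143 TPM in WT 34 and 144 TPM in WT 82, and Itga6, the integrin alpha 6 subunit used in the sort, had 143 TPM in WT 34 and 124 TPM in WT 82. Over these 5 genes the SD between the libraries ran from 0.792 TPM for Sox9 to 891 TPM for Krt15. The order Krt15, Cd34, Lhx2 was the same in both, while Sox9 and Itga6 changed places. Ly6a, the Sca-1 antigen of the upper follicle and interfollicular epidermis that the sort excluded, had 11.9 TPM in WT 34 and 10.3 TPM in WT 82. Of 35 further genes known from follicle stem cells, 34 were detected, with a median of 125 TPM. They included the surface glycoprotein Cd200 at 121 and 124 TPM, the receptor Lgr5 at 121 and 129 TPM, and the calcium-responsive factor Nfatc1 at 76.3 and 145 TPM in WT 34 and WT 82. The exception was Krt19, a simple-type keratin often used to mark the bulge, at 1.1 TPM in WT 34 and 0.77 TPM in WT 82.

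**Figure D1:**
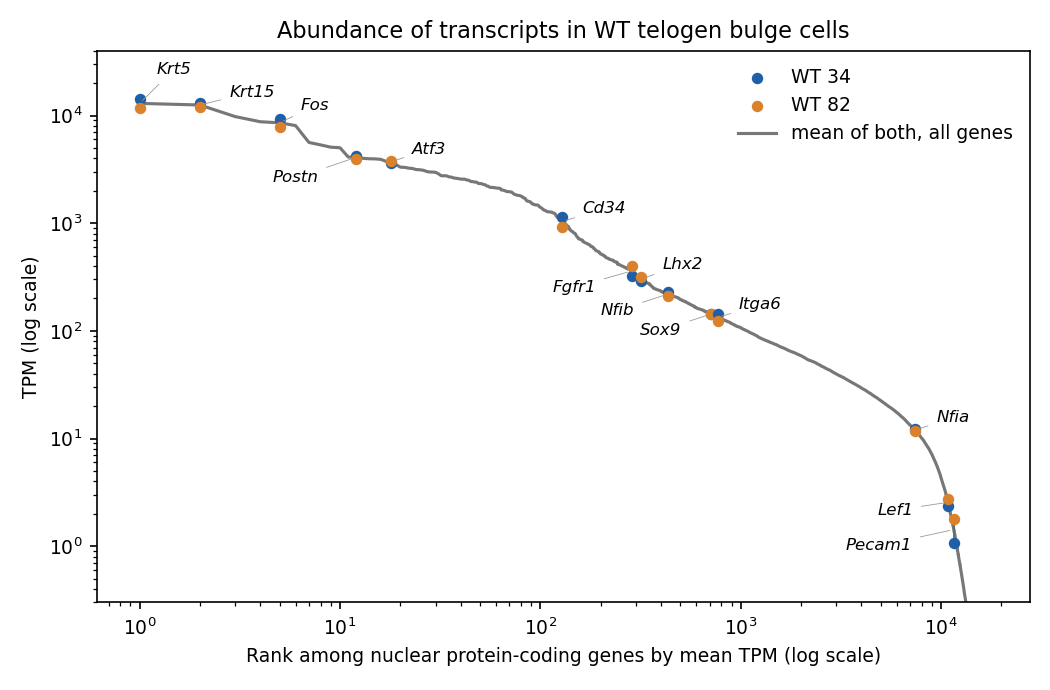
TPM (log scale) against rank among nuclear protein-coding genes by mean TPM (log scale); the grey line is the mean of both libraries for all genes, and points are the values of 14 genes in WT 34 (blue) and WT 82 (orange). Krt5 and Krt15 lead, Cd34 lies at rank 128, and Pecam1, an endothelial gene, lies at rank 11566.

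A small number of genes held much of the RNA. The 10 highest nuclear protein-coding genes took 10.6% of the TPM of that class in WT 34 and 10.1% in WT 82, the 100 highest took 36.2% and 38.4%, and the 1000 highest took 67.1% and 69.9%. By mean TPM, 130 genes stood at 1000 or more, 943 between 100 and 1000, 6953 between 10 and 100, 3933 between 1 and 10, and 9575 below 1. Ribosomal protein genes took 14.6% of the whole TPM in WT 34 and 15.1% in WT 82, and mitochondrially encoded genes took 5.74% and 7.20%. Processed pseudogenes held 7.0% and 6.73%, and unprocessed pseudogenes 3.92% and 4.43%. The pseudogene shares are uncertain, because such copies can share reads with their parent genes: Tpt1-ps3, a copy of the growth-associated gene Tpt1, was listed at 3512 and 3932 TPM beside Tpt1 at 5122 and 6129 TPM in WT 34 and WT 82.

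Outside the mitochondrial, ribosomal protein and non-coding genes, the most abundant transcript was that of Krt5, the type II keratin of basal epithelium, at 12977 ± 1693 TPM (SD, n = 2). Krt15 followed at 12534 ± 891 TPM (SD, n = 2). The pair is not separated by the spread, since Krt5 was higher in WT 34 and Krt15 was higher in WT 82. S100a6, a calcium-binding protein, came next at 9783 ± 1542 TPM (SD, n = 2), then Apoe, the lipid carrier apolipoprotein E, at 8763 ± 689 TPM (SD, n = 2), and Fos, a subunit of the AP-1 transcription factor, at 8561 ± 1144 TPM (SD, n = 2). Eef1a1, a translation elongation factor, averaged 8076 ± 632 TPM (SD, n = 2). Of these, Krt5 and Krt15 were above the other 4 in both libraries, and the orders of S100a6, Apoe, Fos and Eef1a1 differed between the libraries.

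The rest of the 25 highest genes fell into a few kinds. S100a4, a calcium-binding protein, had 5251 and 5428 TPM in WT 34 and WT 82, and Krt14, the type I partner of KRT5, had 4692 and 3143 TPM. Postn, which encodes the matricellular protein periostin, had 4189 and 3980.3 TPM, close between the libraries. Actg1 and Tmsb4x, the genes of gamma-actin and the actin-binding peptide thymosin beta 4, had 3704 and 3309 TPM (Actg1) and 2989 and 3508 TPM (Tmsb4x). Cxcl14, an epithelial chemokine, had 1978 and 4000.0 TPM, and Cyr61, a matrix-associated growth regulator, had 3084 and 2439.6 TPM. Lgals7 and Dmkn, the genes of the keratinocyte proteins galectin-7 and dermokine, had 3294 and 2677 TPM (Lgals7) and 2213 and 2910.0 TPM (Dmkn). Mt1, a metal-binding metallothionein, was the least even of the 25, at 1338 TPM in WT 34 and 4938 TPM in WT 82. The list also held Tpt1, the chromatin-associated Ptma and 8 genes of the early response to stimulation, which are taken up next. When each library was ranked alone, 20 of the 25 genes remained among the 25 highest in WT 34, where Cxcl14, Hspb1, Klf4, Mt1 and Zfp36 left, and 24 in WT 82, where Cyr61 left.

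Early response genes, which are transcribed within minutes of a stimulus, held the highest levels among regulators of transcription. All 25 genes of the list of immediate early and heat shock genes were detected, beside 54.1% of nuclear protein-coding genes. Their median was 1165 TPM, against 18.2 TPM for all detected nuclear protein-coding genes. The list was chosen with earlier results of these data known, so its count and median are descriptions only. Together they took 5.05% of the nuclear protein-coding TPM in WT 34 and 5.63% in WT 82. Fos stood at 9369 TPM in WT 34 and 7752 TPM in WT 82 and its paralogue Fosb at 3199.6 TPM in WT 34 and 4293 TPM in WT 82. Atf3, a stress-induced bZIP factor, had 3661 TPM in WT 34 and 3769 TPM in WT 82, and Egr1, a zinc finger factor, had 3133 TPM in WT 34 and 2927 TPM in WT 82. Klf4, a zinc finger factor of epithelial differentiation, had 1915 and 3276 TPM, Nr4a1, an orphan nuclear receptor, had 2104 and 2900.2 TPM, and Zfp36, which promotes decay of AU-rich mRNA, had 1893 and 2759.7 TPM in WT 34 and WT 82. The small heat shock protein gene Hspb1 had 1528 TPM in WT 34 and 3291 TPM in WT 82, a difference of more than 2-fold. The phosphatase gene Dusp1, which switches off MAP kinases, had 2225 and 2008 TPM, and the other AP-1 genes Jun and Junb had 2183 and 1702 TPM (Jun) and 1843 and 1768 TPM (Junb). The cells were measured after sorting, and no library of unsorted or directly fixed skin was read here, so the level of these genes before cell isolation is not known from these data.

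RefSeq promoter windows, which run from 250 bases before to 50 after a start site, are shown for the highest keratin, the sort marker and 2 early response genes, so that the sequence at these start sites can be read beside the levels. Capitals mark the letters TGACG on either strand, the core of the cAMP response element through which CREB and ATF proteins bind. Krt5 lies at chr15:101712856-101713155, Cd34 at chr1:194938571-194938870, Fos at chr12:85473640-85473939 and Atf3 at chr1:191183284-191183583, on build GRCm38.p6. Krt5 and Atf3 are on the minus strand, Cd34 and Fos on the plus strand, and each window is written in the direction of transcription.
Krt5: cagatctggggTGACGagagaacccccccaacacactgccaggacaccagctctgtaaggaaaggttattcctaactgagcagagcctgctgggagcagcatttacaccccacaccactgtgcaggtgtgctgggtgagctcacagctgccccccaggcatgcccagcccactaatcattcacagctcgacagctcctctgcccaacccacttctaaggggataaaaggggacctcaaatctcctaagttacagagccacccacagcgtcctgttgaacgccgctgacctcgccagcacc
Cd34: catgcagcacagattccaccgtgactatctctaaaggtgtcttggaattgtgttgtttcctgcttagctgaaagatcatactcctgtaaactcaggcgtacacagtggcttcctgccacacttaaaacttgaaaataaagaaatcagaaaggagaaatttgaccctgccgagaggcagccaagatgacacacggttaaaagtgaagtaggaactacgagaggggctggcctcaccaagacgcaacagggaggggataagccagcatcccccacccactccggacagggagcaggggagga
Fos: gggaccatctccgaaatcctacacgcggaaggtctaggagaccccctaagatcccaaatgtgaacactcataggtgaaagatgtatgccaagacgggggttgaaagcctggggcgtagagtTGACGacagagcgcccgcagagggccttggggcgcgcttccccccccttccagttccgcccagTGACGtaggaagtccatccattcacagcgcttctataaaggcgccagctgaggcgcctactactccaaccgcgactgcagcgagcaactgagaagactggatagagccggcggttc
Atf3: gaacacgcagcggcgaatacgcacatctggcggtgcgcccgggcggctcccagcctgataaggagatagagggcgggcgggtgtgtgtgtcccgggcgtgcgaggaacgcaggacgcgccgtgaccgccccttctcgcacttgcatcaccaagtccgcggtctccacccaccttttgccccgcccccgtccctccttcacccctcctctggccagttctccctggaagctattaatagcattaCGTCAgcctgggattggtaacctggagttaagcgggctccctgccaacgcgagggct
The Fos window held TGACG at positions -129 and -66 from the start site, the Atf3 window at position -7 and the Krt5 window at position -239, and the Cd34 window held no match. A promoter window was matched by symbol for 15812 nuclear protein-coding genes, and 24.6% of those windows held TGACG on either strand. The share was 12 of 21 windows of the immediate early and heat shock genes, 201 of the 500 highest genes (40.2%), 32.6% of 8927 detected genes and 10.1% of 3213 genes listed at 0. The motif contains a CpG, and the median GC content of the windows was 64.3%, 60.7%, 61.3% and 43.7% in the same 4 classes. The GC box GGGCGG, which is also rich in CpG, was in 66.7% of windows of detected genes and 11.3% of windows of genes listed at 0. The TATA box letters TATAAA ran the other way between these 2 classes, at 6.62% and 28.3%. They were in 12.4% of windows of the 500 highest genes, near the 12.6% of all matched genes. TTGGC, the core of the NFI binding site, was in 50.6% of windows of detected genes and 41.3% of windows of genes at 0, and in the Cd34, Fos and Atf3 windows but not that of Krt5. A match is a description of letters and not a site that was shown to be bound.

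In all, 341 of the 530 genes in the lists of transcription factors and cofactors, early response genes included, were detected (64.3%), and 47 had a mean of at least 100 TPM. Id3, Id1 and Id2, which encode inhibitors of basic helix-loop-helix factors and are known targets of BMP signalling, had 889 and 793 TPM (Id3), 683 and 605 TPM (Id1) and 359.9 and 517 TPM (Id2) in WT 34 and WT 82. Id3 was the highest of the family in both. Atf4, a bZIP factor of the amino acid response, had 579 and 723 TPM. Hopx, an atypical homeodomain protein of several stem cell compartments, had 477 and 363 TPM, above Lhx2. Trp63, the p53 family member required for stratified epithelium, had 332 TPM in WT 34 and 211 TPM in WT 82, with Trp53 at 57.9 and 58.6 TPM and Trp73 at 17.7 and 23.4 TPM. Ldb1, the adaptor that binds LIM homeodomain proteins, had 169 and 291 TPM, and the LIM-only genes Lmo4 and Lmo1 had 119 and 98.9 TPM (Lmo4) and 91.6 and 104 TPM (Lmo1). The LIM family was otherwise low: 12 of its 17 genes were below 1 TPM in both libraries, and Lhx1, Lhx5, Lhx8, Isl1 and Isl2 were listed at 0.

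**Figure D2:**
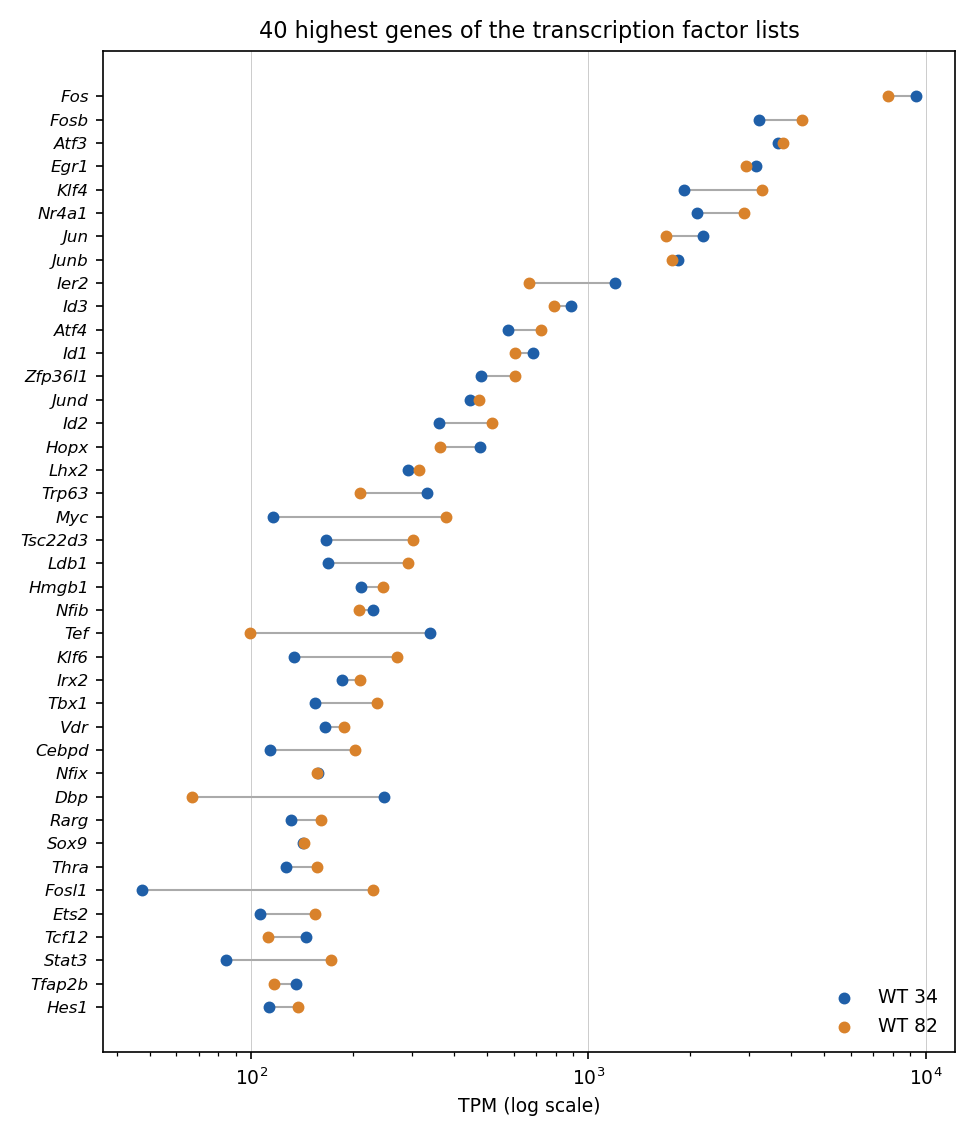
TPM (log scale) in WT 34 (blue) and WT 82 (orange) for the 40 genes with the highest mean in the transcription factor lists, joined by a line. Fos to Junb lie above the other genes, Lhx2, Nfix and Sox9 are close between libraries, and Myc, Tef, Dbp and Fosl1 are far apart.

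The 4 NFI genes, whose loss the series studied, differed in level. Nfib had 229.6 TPM in WT 34 and 209 TPM in WT 82, Nfix had 158 TPM in WT 34 and 157 TPM in WT 82, Nfic had 39.5 TPM in WT 34 and 30.7 TPM in WT 82, and Nfia had 12.1 TPM in WT 34 and 11.8 TPM in WT 82. Their order was the same in both libraries and the ranges of neighbours did not overlap. Among SOX genes, Sox9 accounted for most of a family sum of 171 TPM in WT 34 and 175 TPM in WT 82, and 8 of 15 members, Sox2 and Sox17 at 0 among them, were below 1 TPM in both. The TCF and LEF genes, which encode the nuclear partners of beta-catenin, were all detected. Their median was 10.5 TPM, against 18.2 TPM for all detected nuclear protein-coding genes, and only Tcf7l2, with a mean of 24.2 TPM, was above 18.2 TPM. Tcf7l2 had 26.2 and 22.2 TPM in WT 34 and WT 82, Tcf7l1 had 11.6 and 14.9 TPM, Tcf7 had 5.6 and 10.1 TPM, and Lef1, the member best known from the hair matrix and shaft, had 2.37 and 2.74 TPM. The beta-catenin gene Ctnnb1 itself had 405 and 353 TPM.

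Other developmental factors were each led by a few genes. Of the T-box list, Tbx1, known in bulge cells as a regulator of their replenishment, had 154 TPM in WT 34 and 235 TPM in WT 82, and no other of the 12 members matched reached 1 TPM in both. The Iroquois genes Irx2, Irx1, Irx3 and Irx5 had 186 and 210.5 TPM (Irx2), 45.8 and 63.4 TPM (Irx1), 34.1 and 40.3 TPM (Irx3) and 32.8 and 34 TPM (Irx5) in WT 34 and WT 82. Barx2, a homeobox gene of hair follicles, had 82.4 and 104 TPM. Tfap2b and Tfap2a, the AP-2 genes of ectoderm, had 135 and 117 TPM (Tfap2b) and 39.2 and 40 TPM (Tfap2a). Runx1, a factor of stem cell activation, had 25.4 and 35.3 TPM. The zinc finger gene Gata3, which is known to specify the inner root sheath, had 47.3 and 47.8 TPM, and Foxc1, a forkhead factor of stem cell quiescence, had 28.1 and 27.8 TPM. In the forkhead list Foxp1, which is known to restrain bulge cell cycling, was highest at 55.7 and 80 TPM. The nuclear receptor list was led by Vdr, the vitamin D receptor that hair cycling requires, at 166 and 189 TPM, by the retinoid receptor gene Rarg at 131 and 161 TPM, and by Thra, a thyroid hormone receptor gene, at 127 and 157 TPM. Yap1, the coactivator of the Hippo pathway, had 80.5 and 59.9 TPM, and all 6 genes of the TEAD and YAP list were detected. Gli1, the hedgehog target gene, had 34.5 and 73.3 TPM, with Gli2 at 26.1 and 26.7 TPM and Gli3 at 11.9 and 10.6 TPM.

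HOX genes, which mark position along the body axis, were detected at 24 of 39 (61.5%), near the 54.1% of all nuclear protein-coding genes. The middle paralog groups 4 to 8 held all 15 of their members detected and a sum of 385 TPM in WT 34 and 390.0 TPM in WT 82. Paralog groups 1 to 3 had 5 of 8 detected, and groups 9 to 13 had 4 of 16, with sums of 46.4 and 46.5 TPM. Hoxa7 was highest at 91.6 and 80.9 TPM in WT 34 and WT 82, followed by Hoxc8 at 44.4 and 48.3 TPM, Hoxb6 at 38.2 and 38.1 TPM and Hoxd8 at 35.7 and 35.7 TPM, whose ranges lay below that of Hoxa7. Hoxc13, a factor of the hair shaft, had 11.1 and 8.16 TPM, and Hoxa11, Hoxa13, Hoxb13, Hoxd10, Hoxd12 and Hoxd13 were listed at 0. HOX genes overlap antisense transcripts, and whether the counting used strand is not given in the sources used here, so reads of the overlapping strands may be mixed.

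Receptor genes were detected more often than ligand genes: 155 of 244 genes in the receptor lists (63.5%) against 136 of 322 genes in the lists of ligands and their modulators (42.2%). Both stand beside 54.1% of nuclear protein-coding genes, and no test was run on the difference. The highest growth factor receptor was Fgfr1 at 320.5 TPM in WT 34 and 399 TPM in WT 82, with Fgfr2 at 179 and 165 TPM and Fgfr3 at 102 and 150.4 TPM, while Fgfr4 was below 1 TPM. In contrast to their receptors, 4 of 24 genes of the FGF ligand list were detected. They were Fgfbp1, an FGF carrier protein, at 90.5 and 89.8 TPM, Fgf1 at 71.8 and 60.1 TPM, Fgf18 at 16.4 TPM in WT 34 and 41.7 TPM in WT 82, and Fgf11, which codes for an FGF homologue that is not secreted, at 3.31 and 5.32 TPM. Fgf3, Fgf4, Fgf8, Fgf12, Fgf14 and Fgf23 were listed at 0. Fgf18, the quiescence signal of the bulge, was more than 2-fold higher in WT 82.

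WNT reception was broadly present. Of 18 WNT receptor genes 17 were detected, with a median of 22.4 TPM. Lgr5 and Lgr4, whose products bind R-spondins and strengthen WNT signalling, had 121 and 129 TPM (Lgr5) and 116 and 90.2 TPM (Lgr4) in WT 34 and WT 82, Lgr6 had 43.2 and 36.6 TPM, and the coreceptors Lrp5 and Lrp6 had 46.9 and 44.7 TPM (Lrp5) and 38.5 and 27 TPM (Lrp6). The Frizzled genes Fzd2 and Fzd7 had 118 and 81.9 TPM (Fzd2) and 113 and 51.1 TPM (Fzd7), and Fzd7 was more than 2-fold higher in WT 34. Of 19 WNT ligand genes 6 were detected, and the highest were Wnt4 at 13.8 and 25 TPM, Wnt7b at 15.8 and 19 TPM and Wnt10a at 13.4 and 18.6 TPM, whose ranges overlapped. Secreted WNT modulators stood higher. Dkk3, a divergent Dickkopf protein, had 337 TPM in WT 34 and 303 TPM in WT 82. Sfrp1, a decoy for WNT proteins, had 219.9 TPM in WT 34 and 156 TPM in WT 82, Sostdc1, an antagonist of BMP and WNT, had 135 TPM in WT 34 and 117 TPM in WT 82, and Wif1, which binds WNT proteins, had 54.5 TPM in WT 34 and 78.3 TPM in WT 82. The 24 modulator genes summed to 810 TPM in WT 34 and 719 TPM in WT 82, and the 19 ligand genes to 57.0 and 80.4 TPM. Most of the modulator sum lay in these 4 genes, and 14 of the 24 were below 1 TPM in both libraries.

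BMP and TGF-beta receptors, ligands and antagonists were compared in the same way. Of 15 receptor genes 11 were detected (73.3%), beside 54.1% of nuclear protein-coding genes. The highest were Acvr1b, a type I receptor of activin and nodal, at 49.3 and 42.8 TPM in WT 34 and WT 82, and Bmpr1a, the BMP receptor known to be required for bulge quiescence, at 43 and 28 TPM. The ligand list was lower. Tgfb3, Tgfb1 and Bmp2 had 20.7 and 20.1 TPM (Tgfb3), 11.5 and 25.9 TPM (Tgfb1) and 7.98 and 16.3 TPM (Bmp2), and Bmp6, a BMP of the bulge niche, had 2.82 and 2.42 TPM. The list of 24 ligand genes summed to 89.2 TPM in WT 34 and 135 TPM in WT 82, against 1565 and 1493 TPM for 17 genes of modulators. Among the modulators, Nbl1 and Grem1, which encode BMP antagonists, had 290.4 and 269 TPM (Nbl1) and 301 and 183 TPM (Grem1), Fst, which encodes the activin-binding follistatin, had 202 and 292 TPM, and Ltbp4, which encodes a protein that anchors latent TGF-beta, had 217 and 268 TPM. Nog, the BMP antagonist noggin, was lower at 32.5 and 34.9 TPM. Tgfb1 was more than 2-fold higher in WT 82, as were Inha and Tgfb2.

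**Figure D3:**
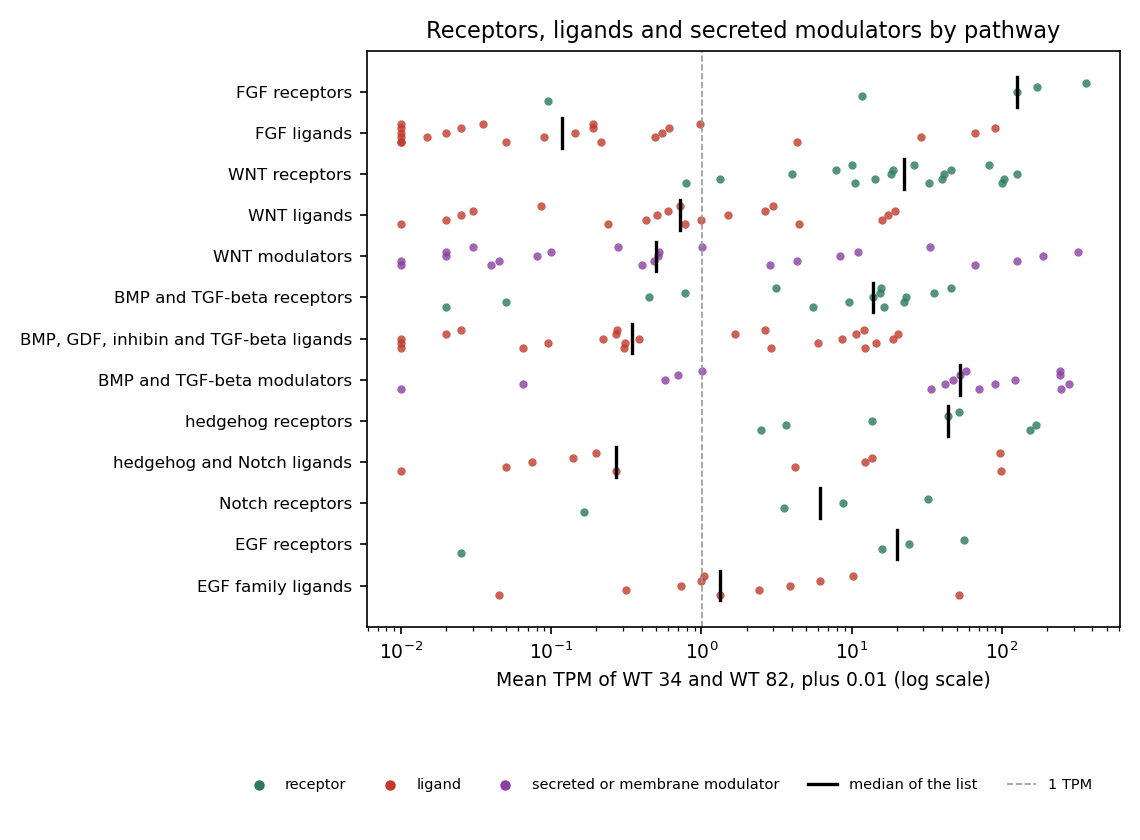
Each dot is the mean TPM of WT 34 and WT 82 for 1 gene, plus 0.01 (log scale), by list; green is receptors, red ligands, purple modulators, the black bar is the list median and the dashed line is 1 TPM. The medians of the FGF, WNT, BMP and TGF-beta, hedgehog, Notch and EGF receptor lists lie above 1 TPM, and those of the FGF, WNT, BMP and TGF-beta, and hedgehog and Notch ligand lists lie below it, while that of the EGF family ligand list, at 1.32 TPM, lies above it.

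For hedgehog, all 7 receptor genes were detected. The coreceptor genes Gas1 and Boc led at 185 and 152 TPM (Gas1) and 161 and 144 TPM (Boc) in WT 34 and WT 82, Smo, the signal transducer, had 56.2 and 47.7 TPM, and Ptch1, the ligand-binding receptor and a target of the pathway, had 16.4 and 10.9 TPM. The ligand genes Shh, Ihh and Dhh were below 1 TPM in both. Notch1 had 31.7 and 32.5 TPM, Notch2 had 11.5 and 5.9 TPM, Notch3 had 4.04 and 2.99 TPM, and Notch4 had 0.26 and 0.05 TPM. The Notch ligand genes Jag2 and Jag1 exceeded every Notch receptor gene, at 92.1 and 105 TPM (Jag2) and 114 and 79 TPM (Jag1), and Hes1, a target gene of the pathway, had 113 and 138 TPM. Egfr, the EGF receptor, had 65.6 and 46 TPM, Erbb2 had 23.3 and 24.7 TPM, Erbb3 had 16.4 and 15.4 TPM, and Erbb4 had 0.03 and 0 TPM. Its ligand gene Hbegf had 22.4 TPM in WT 34 and 80.3 TPM in WT 82, more than 2-fold higher in WT 82, and the other EGF family ligands were at 13.2 TPM or less.

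Receptors of other families were also abundant. Il11ra1, which encodes the interleukin-11 receptor alpha chain, had 355 and 461 TPM in WT 34 and WT 82, Tnfrsf1a, a TNF receptor gene, had 221 and 272 TPM, and Il31ra, a subunit of the interleukin-31 receptor, had 292 and 169 TPM. The kinase-dead Ephrin receptor Ephb6 had 253 and 279 TPM, and Ddr1, a collagen-binding receptor kinase, had 252 and 234 TPM. Adgra3, an adhesion G protein-coupled receptor, had 174 and 189.6 TPM, and Ackr4, a scavenger of chemokines, had 143 and 70.5 TPM, more than 2-fold higher in WT 34. Axl and Ryk, a GAS6 receptor and an atypical WNT receptor, had 126 and 88.3 TPM (Axl) and 121 and 97.8 TPM (Ryk). Gas6, the AXL ligand gene, had 216 and 214 TPM.

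Within the ligand and modulator lists, Cxcl14 had the highest mean, at 1978 TPM in WT 34 and 4000.0 TPM in WT 82, and Cyr61, given above, was higher than Cxcl14 in WT 34. Cxcl14 was more than 2-fold higher in WT 82 on the log2(TPM + 1) scale. Ptn, a heparin-binding growth factor, had 1877 TPM in WT 34 and 1387 TPM in WT 82, and Ctgf, a relative of Cyr61, had 901 TPM in WT 34 and 1838 TPM in WT 82. Mif, a cytokine made by many cells, had 644 and 606 TPM, and Cxcl12, which attracts CXCR4-bearing cells, had 87.4 and 85.1 TPM in WT 34 and WT 82. The insulin-like growth factor binding genes Igfbp3, Igfbp7 and Igfbp4 had 149.5 and 264 TPM (Igfbp3), 140.3 and 172 TPM (Igfbp7) and 133 and 131 TPM (Igfbp4). Efna1 and Efnb2, ephrin genes, had 148 and 221 TPM (Efna1) and 137 and 123 TPM (Efnb2), and the semaphorins Sema3e and Sema3c had 94.9 and 71.4 TPM (Sema3e) and 106 and 58.5 TPM (Sema3c). Of 32 chemokine genes 20 were below 1 TPM in both libraries, with Ccl3, Ccl4, Ccl8, Ccl12 and Cxcl13 at 0. Of 50 cytokine and TNF family genes 33 were below 1 TPM in both.

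The matrix lists held 219 genes, of which 115 were detected (52.5%). Postn led them, followed by Col17a1, the transmembrane collagen of hemidesmosomes, at 1886 TPM in WT 34 and 2023 TPM in WT 82. Tgfbi, a periostin relative, had 716 and 609 TPM, Ecm1, an extracellular matrix protein of skin, had 619 and 795 TPM, and Thbs1, thrombospondin 1, had 514 and 499.6 TPM in WT 34 and WT 82. The heparan sulphate proteoglycans Sdc4, Sdc1 and Agrn had 479 and 567 TPM (Sdc4), 446 and 499 TPM (Sdc1) and 382 and 503 TPM (Agrn). Lamb3, a laminin beta chain gene, had 276 and 251 TPM and Lama3, a laminin alpha chain gene, had 107 and 78 TPM. Lama5, the alpha chain of laminin-511, had 93.1 TPM in WT 34 and 214 TPM in WT 82 and Col7a1, which forms anchoring fibrils, had 189.8 TPM in WT 34 and 390.5 TPM in WT 82, both more than 2-fold higher in WT 82. Npnt and Egfl6, bulge basement membrane ligands of integrins, had 84 and 62.8 TPM (Npnt) and 85.6 and 101 TPM (Egfl6). The type IV collagen gene Col4a5 had 18.2 and 18 TPM.

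All 7 hemidesmosome genes were detected, with a median of 204 TPM. Beside Col17a1, Lamb3 and Itga6 they were Dst, which encodes the plakin BPAG1, at 595 and 312 TPM, Itgb4, the partner of integrin alpha 6, at 205 and 203 TPM, Cd151, a tetraspanin, at 179.6 and 134 TPM, and Plec, which encodes plectin, at 70 and 38.5 TPM in WT 34 and WT 82. The Dst symbol is on several rows of the table and its level is uncertain. Itgb1, the common integrin beta subunit, had 158 and 122 TPM, and Itga3, the alpha subunit of another laminin receptor, had 61.9 and 78.1 TPM. Of the desmosome and adherens junction list, 22 of 29 genes were detected (75.9%), beside 54.1% of nuclear protein-coding genes. Perp, a desmosomal p63 target, had 1386 and 1166 TPM, Dsp, desmoplakin, had 712 and 419.6 TPM, and Cdh1, E-cadherin, had 173 and 152 TPM. Cdh3, the P-cadherin of basal and hair germ cells, had 36.2 and 44 TPM.

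The keratins were led by those of basal and outer root sheath cells. Krt5 made up 88.2% of the summed type II keratin TPM in WT 34 and 83.0% in WT 82, and Krt15 made up 64.4% and 67.9% of type I. Krt14 gave a further 23.0% and 17.9%. Krt6a, a keratin of the inner bulge and companion layer, had 706 TPM in WT 34 and 1539 TPM in WT 82, and Krt17, made through the outer root sheath, had 1066 TPM in WT 34 and 1515 TPM in WT 82. Krt75, the other defining gene of the inner bulge, was far lower, with 2.86 TPM as its lowest value. Krt6a and Krt75 together summed to 711 TPM in WT 34 and 1541 TPM in WT 82, nearly all of it Krt6a. Krt24, a type I keratin of the bulge, had 460.2 TPM in WT 34 and 353 TPM in WT 82. The close paralogues Krt6a and Krt6b, and likewise Krt14, Krt16 and Krt17, share sequence, and reads may be split between them: Krt6b was listed at 3.46 and 0.17 TPM. Of 26 type II and 26 type I genes matched, 14 and 13 were below 1 TPM in both libraries, among them the hair shaft keratins Krt31 and Krt35.

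Proliferation genes were widely detected, but most were low among detected genes. All 41 members of the replication and mitosis list had a mean of at least 1 TPM. Of these, 39 were detected (95.1%), beside 54.1% of nuclear protein-coding genes. Their median was 3.95 TPM, against 18.2 TPM for all detected nuclear protein-coding genes. It was above the 2.66 TPM of all nuclear protein-coding genes, detected or not. Mki67, the Ki-67 antigen, had 2.26 TPM in WT 34 and 3.45 TPM in WT 82, Top2a, a topoisomerase of dividing cells, had 8.6 TPM in WT 34 and 15.7 TPM in WT 82, and Ccnb1, a mitotic cyclin, had 3.78 TPM in WT 34 and 5.71 TPM in WT 82. Pcna, the polymerase clamp used in replication and repair, stood apart at 237 TPM in WT 34 and 246 TPM in WT 82, and the next highest, the helicase gene Mcm7, had 24.8 and 22.9 TPM. Cdk1, Cdca3 and Ccnb2, genes of mitosis, were more than 2-fold higher in WT 82. In bulk RNA, fewer cycling cells and less of such RNA in each cell cannot be told apart.

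Several genes that restrain the cycle stood higher. Btg2, an antiproliferative early response gene, had 1134 and 1196 TPM in WT 34 and WT 82. Cdkn1a, the p21 inhibitor, had 149 TPM in WT 34 and 407 TPM in WT 82, more than 2-fold higher in WT 82, and Cdkn1b, the p27 inhibitor, had 69.6 and 56.8 TPM. Of the D cyclins, Ccnd3 had 88.3 and 98.7 TPM, Ccnd1 had 63.5 and 30 TPM, and Ccnd2 had 34.9 and 23.2 TPM. Ccnd3 was highest in both libraries, and Ccnd1 was more than 2-fold higher in WT 34. Their kinase Cdk4 had 242 and 195 TPM and Cdk6 had 5.55 and 4.4 TPM. Cdkn2a, which is tied to senescence, was below 1 TPM in both.

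Genes of other follicle layers and of the epidermis were not absent. The list of interfollicular basal and suprabasal genes was detected in all 16 members with a median of 308 TPM, and its sum was 10588 TPM in WT 34 and 9664 TPM in WT 82. Besides Lgals7 and Dmkn, it held Krt10 and Krt1, keratins of suprabasal cells, at 1010.0 TPM in WT 34 and 557 TPM in WT 82 (Krt10) and 216 TPM in WT 34 and 124 TPM in WT 82 (Krt1), and Calml3, Sbsn and Krtdap, genes of keratinocyte differentiation, at 991 and 779 TPM (Calml3), 805 and 882 TPM (Sbsn) and 580.1 and 517 TPM (Krtdap). The list of granular and cornified layer genes had a lower median, 3.69 TPM. Of its 30 genes 23 were detected (76.7%), beside 54.1% of nuclear protein-coding genes. Tgm5 was the highest, and the list summed to 984 TPM in WT 34 and 878 TPM in WT 82. Lor, loricrin, had 37.1 TPM in WT 34 and 8.27 TPM in WT 82, and Ivl, involucrin, had 8.41 TPM in WT 34 and 5.91 TPM in WT 82. Lor, Lce1m, Flg2 and Crct1, all of the late cornified layer, were more than 2-fold higher in WT 34, and Sprr1a was more than 2-fold higher in WT 82. Of 24 sebaceous genes 20 were detected (83.3%), with a median of 17.7 TPM and Mgst1 the highest. The sebaceous list held Scd1, a fatty acid desaturase gene, at 103 and 178 TPM in WT 34 and WT 82. The 3 defining sebaceous genes were lower, at 3.75 and 7.38 TPM (Awat2), 1.92 and 3.55 TPM (Pparg) and 0.82 and 0.58 TPM (Mc5r). Of 17 matched hair matrix and shaft genes 5 were detected, led by Hoxc13, and the inner root sheath list was led by Gata3 with Krt25, Krt27 and Krt71 at no more than 1.18 TPM. Whether the suprabasal transcripts came from the CD34-positive cells or from other epidermal cells in the sort was not tested.

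Most genes in the lists of other cell lineages were below 1 TPM. The lineage lists held 165 genes, of which 44 were detected (26.7%), with a median of 0.225 TPM against 2.66 TPM for all nuclear protein-coding genes. The 7 mast cell genes, among them Cpa3, Mcpt4 and Cma1, were listed at 0 in both libraries. Of 14 endothelial genes 3 were detected, and Ramp2 had the highest mean. That list summed to 17.1 TPM in WT 34 and 20.3 TPM in WT 82. The endothelial genes Cdh5, Emcn and Erg were at 0, with Pecam1 at 1.08 TPM in WT 34 and 1.77 TPM in WT 82. Adipoq, Plin1 and Cfd, genes of fat cells, were at 0, while 2 of the 9 genes of that list were detected, with Lpl the highest. The muscle genes Myh4, Tnnt3, Des, Myod1 and Pvalb were at 0, as were Atoh1, Isl1, Sox2 and Chga of Merkel cells. Of 10 muscle genes 1 was detected, and Mylpf was the highest of that list. Of 11 Merkel cell genes 2 were detected, and Krt8 was the highest. The fibroblast genes Pdgfra, Lum, Dcn and Dpt were at 0.19 TPM or less. Myh11 of smooth muscle and Rgs5 of pericytes were at 0.03 TPM or less, while 3 of the 10 genes of that list were detected. They were Cspg4, the NG2 proteoglycan, at 67.5 and 64.4 TPM in WT 34 and WT 82, Notch3 as given above, and Tagln, an actin-binding protein gene, at 2.13 and 2.06 TPM.

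Some markers were present at low level. Of 5 defining melanocyte genes 4 were at 1 TPM or more, with Dct, a melanin enzyme gene, at 5.76 TPM in WT 34 and 11.2 TPM in WT 82, Pmel at 1.75 and 5.75 TPM, Tyrp1 at 1.6 and 3.74 TPM and Tyr at 1.1 and 1.28 TPM. The defining set summed to 10.4 TPM in WT 34 and 22.4 TPM in WT 82. Mitf, a melanocyte factor that other cells also express, had 57.1 and 63 TPM. Cd207, the langerin of Langerhans cells, had 1.69 TPM in WT 34 and 2.35 TPM in WT 82, and Cd74 and H2-Aa, class II antigen presentation genes, had 23.1 and 34.6 TPM (Cd74) and 11.8 and 13.3 TPM (H2-Aa). Cd3e, Ptprc and Csf1r, which define T cells, leukocytes and macrophages, were below 1 TPM. Cd3g, the highest of the 3 defining T cell genes, had a mean of 1.065 TPM, and none of the 3 reached 1 TPM in both libraries. Of the 12 genes of the T cell list 3 were detected. Trbc2, a T cell receptor constant gene, was nevertheless at 23 and 19.9 TPM with its near-identical partner Trbc1 at 1.97 and 1.38 TPM, so the level of each is uncertain. The haemoglobin genes Hba-a1 and Hbb-bs had 4.24 and 3.23 TPM (Hba-a1) and 4.12 and 2.62 TPM (Hbb-bs). Col6a1, a collagen VI gene also used for fibroblasts, had 194 TPM in WT 34 and 162 TPM in WT 82, and 5 of the 14 genes of the fibroblast list were detected, with a sum of 241 TPM in WT 34 and 233 TPM in WT 82. The others were the type I collagen genes Col1a1 and Col1a2 at 12.2 and 16.6 TPM (Col1a1) and 11.8 and 8.01 TPM (Col1a2), the intermediate filament gene Vim at 12.8 and 20.6 TPM, and the surface glycoprotein gene Thy1 at 8.99 TPM in WT 34 and 23.6 TPM in WT 82, more than 2-fold higher in WT 82. Col3a1, the type III collagen gene, had 0.24 and 0.45 TPM in WT 34 and WT 82. The part of such cells in any result was not tested.

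**Figure D4:**
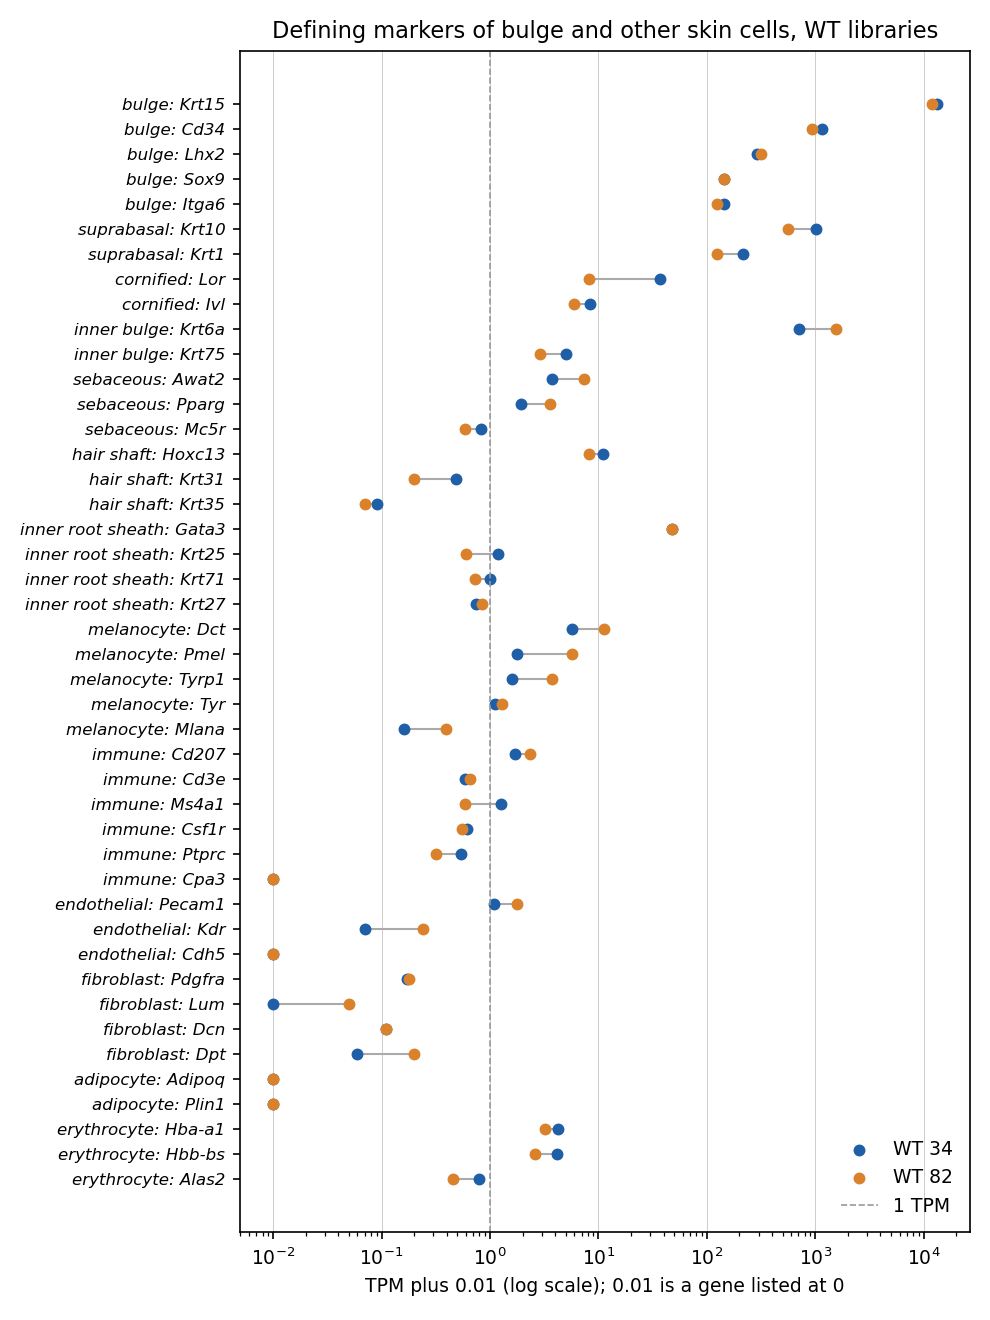
TPM plus 0.01 (log scale) in WT 34 (blue) and WT 82 (orange) for defining markers of bulge and other skin cells; the dashed line is 1 TPM, and 0.01 is a gene listed at 0. The bulge markers, the suprabasal keratins and Krt6a lie at 124 TPM or more, and the fibroblast, adipocyte and mast cell markers lie below 1 TPM. Krt75, the other inner bulge marker, lies far below Krt6a.

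Metabolic genes were broadly read. The ferritin genes Ftl1 and Fth1, which store iron, had 1894 and 1746 TPM (Ftl1) and 1165 and 1162 TPM (Fth1) in WT 34 and WT 82. Glycolysis was detected in all 18 genes with a median of 127 TPM, led by Gapdh at 834 and 869 TPM and Pkm, pyruvate kinase, at 582 and 444 TPM. The glucose transporter Slc2a1 had 60.9 TPM in WT 34 and 225 TPM in WT 82, more than 2-fold higher in WT 82. All 22 cholesterol synthesis genes were detected with a median of 44.2 TPM, led by Hmgcs1, an early enzyme of the pathway, at 109.9 and 165 TPM. Mt1 and Mt2, the metallothionein genes, were both more than 2-fold higher in WT 82, Mt2 at 1179.9 TPM in WT 34 and 3124 TPM in WT 82.

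The libraries were not alike at every gene. Beside the 6.6% of all genes compared, the share more than 2-fold apart was 8.02% of 349 transcription factor genes, 9.32% of 161 receptor genes, 17.8% of 146 ligand and modulator genes and 12.6% of 119 matrix genes. Higher in WT 82 and in WT 34, in that order, were 21 and 7 genes of the transcription factor lists, 20 and 6 of the ligand lists, 6 and 9 of the receptor lists and 7 and 8 of the matrix lists. After median-ratio scaling these counts were 39 and 4 for transcription factors, 28 and 2 for ligands, 10 and 3 for receptors and 7 and 2 for matrix genes, so the receptor and matrix lists changed the side that held more genes. The higher ones in WT 82 included Myc, a growth factor-induced regulator, at 116 TPM in WT 34 and 379 TPM in WT 82, Fosl1, an AP-1 gene, at 47.5 TPM in WT 34 and 230.2 TPM in WT 82, and Stat3, a transducer of cytokine signals, at 84 TPM in WT 34 and 172 TPM in WT 82. Zbtb16, a zinc finger gene, was higher in WT 34 at 154 TPM in WT 34 and 22.5 TPM in WT 82, as was Nr3c1, the glucocorticoid receptor, at 111 TPM in WT 34 and 51.2 TPM in WT 82. Among genes with a mean of at least 1 TPM, the widest gaps on the log2 scale were those of the processed pseudogenes Gm8730, at 479.9 and 0.21 TPM in WT 34 and WT 82, and Rps12l1, at 418 and 0.60 TPM. Both were picked after their values were seen, and their levels are uncertain, since reads of a processed pseudogene can be hard to tell from those of its parent gene. The time of day at which the mice were taken and the sequencer used for each library are not given in the sources used here.

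Clock genes were among the least even, and the list of them was drawn up after their values were seen, so its count supports nothing. Of 19 circadian clock genes 4 were more than 2-fold higher in WT 82 and 7 were more than 2-fold higher in WT 34, and after scaling 5 were higher in WT 82 and 5 in WT 34. Per2 and Per3, repressors of the clock, had 23.5 TPM in WT 34 and 3.2 TPM in WT 82 (Per2) and 30.1 TPM in WT 34 and 4.96 TPM in WT 82 (Per3). Dbp and Tef, output bZIP factors of the clock, had 248 TPM in WT 34 and 67 TPM in WT 82 (Dbp) and 339 TPM in WT 34 and 99.1 TPM in WT 82 (Tef). These 4 genes were all higher in WT 34. Arntl, the activator BMAL1, had 5.78 TPM in WT 34 and 24.8 TPM in WT 82, Npas2, a paralogue of CLOCK, had 3.52 TPM in WT 34 and 9.4 TPM in WT 82, and Nfil3, a repressor that opposes DBP, had 54.3 TPM in WT 34 and 193 TPM in WT 82, all higher in WT 82. Cry2, Rora and Clock differed by less than 2-fold, Clock at 18.8 TPM in WT 34 and 12 TPM in WT 82.

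**Figure D5:**
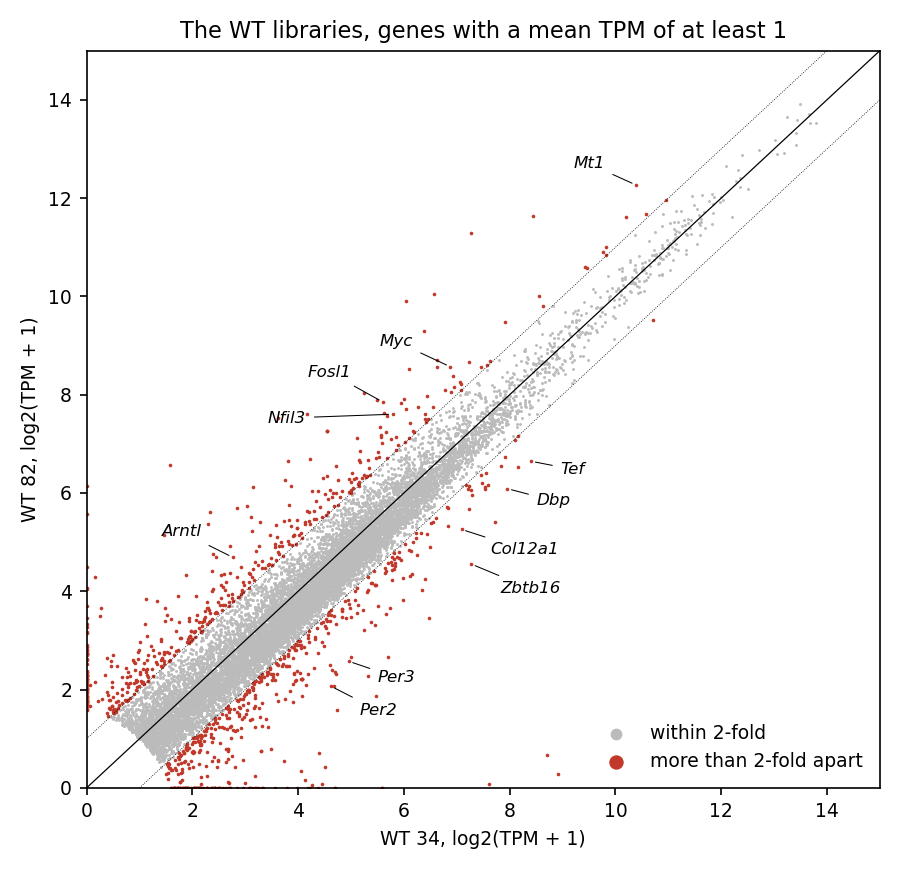
WT 82 against WT 34 as log2(TPM + 1) for the 14370 genes with a mean TPM of at least 1; red genes are more than 2-fold apart (948), grey genes are not, the solid line is equality and dotted lines mark 2-fold. Per2, Per3, Dbp, Tef, Zbtb16 and Col12a1 lie below the lines, and Arntl, Nfil3, Myc, Fosl1 and Mt1 lie above them.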

How the data were processed

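RNA sequencing libraries of sorted hair follicle stem cells from WT mice 34 and 82 were read from the TPM table (length-scaled abundance with an equal total per library) that the authors deposited for 8 libraries, with 46609 features, of which 92 were spike-in sequences that were left out. Per the submitters' processing notes, the tools were Bowtie2 2.2.9 and RSEM 1.2.30 on mm10 (GRCm38); the annotation release was not given in the sources used here. Mean transcript lengths came from the deposited gene table of another library. The 6 knockout columns entered no result, and 0 columns were left without a sample. No test was run, because there is 1 group with 2 libraries. TPM keeps no depth, so no interval is given.

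Gene types and positions came from GENCODE M21 on GRCm38, in which 512 of 46517 genes had no entry, and 83 symbols were on several rows, of which the row whose annotated name equals the symbol was used. Ranks are among nuclear protein-coding genes by mean TPM. A gene was detected at a TPM of at least 1 in both libraries, and libraries were compared on log2(TPM + 1), with a pseudocount of 1 (python 3.11.15, pandas 2.3.3, numpy 2.4.6, scipy 1.17.1). The comparison was tested on simulated data with 200 changed genes. Genes were named by rule: the 25 highest, up to 8 highest members of each list, all sort markers and members of short lists, genes at 0 or defining markers in absent lineages, and members more than 2-fold apart. Others (such as Krt19, Bmp6, Nog, Runx1, Cdh3, Col3a1, Cd200, Mki67, Ccnb1, Cdkn2a, Tpt1-ps3, Gm8730, Rps12l1 and the genes of the clock list) were named after their values were seen. The members and lists were chosen with earlier results of these data known. Promoter windows came from RefSeq on GRCm38.p6, and the window listed first was used for a gene with several. Some genes are not reported here.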

Additional observations from a re-analysis of the deposited data

How the results depend on the processing

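The number of detected genes, 13538, was 15143 at 0.5 TPM, 10059 at 5 TPM and 14370 by the mean, and 14099 to 14512 in a library alone. Of the 25 most abundant genes, 20 to 24 remained when a library was ranked alone, 25 after rescaling without mitochondrial and non-coding genes or by the median ratio, 23 by the mean of ranks, where Mt1 and Zfp36 left, and 23 without genes under 500 bases, which leaves out S100a4 and S100a6. Detected members ranged in a library alone from 343 to 348 for transcription factors, 158 to 159 for receptors, 141 to 148 for ligands and modulators, 117 to 119 for matrix, 50 to 52 for keratin and junction genes and 48 in both for other lineages. The count for other lineages, 44, was 18 at 5 TPM, since most detected members lie between 1 and 5 TPM. The count of genes more than 2-fold apart, 948, was 1484 with a pseudocount of 0.1 and 529 for genes with a mean of at least 5 TPM, where fewer genes are compared, and 1029 after median-ratio scaling and 1104 with no filter. The Pearson r of 0.954 was 0.922 with a pseudocount of 0.1 and 0.985 with no filter. No paired analysis was possible because the libraries belong to 1 group.

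With 2 libraries and unknown depth, a value near 1 TPM has no stated error beyond the spread between them. Levels of pseudogene parents and close paralogues are uncertain.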
